A study of Mus musculus with 20 samples.

Results

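The genes described are those of the cytosolic ribosomal proteins, taken as every protein-coding row of the deposited gene count table named Rpl or Rps followed by a digit, together with Rplp0, Rplp1, Rplp2 and Rpsa and without the Rps6k kinases. The rule found 93 genes among 56748 rows. Of these, 46 encode proteins of the large subunit and 31 of the small subunit, and these 77 genes are called the particle genes here. The other members are 7 paralogs (Rpl3l, Rpl7l1, Rpl10l, Rpl22l1, Rpl36al, Rpl39l and Rps27l), 8 genes with a retrocopy or pseudogene name, and Rps19bp1, a binding partner of Rps19 that the rule takes in by name. After the filter on low counts, 88 of the 93 were tested, all 77 particle genes among them. Rpl10l, Rpl36-ps4 and Rps18-ps6 had no count in any library, and Rpl39l and Rps23rg1 were too low to test.

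The ribosome translates mRNA into protein, and its protein subunits are made in near-equal numbers for assembly around ribosomal RNA in the nucleolus. The mRNAs of these proteins begin with a run of pyrimidines, the terminal oligopyrimidine (TOP) tract, which lets mTORC1, a kinase complex that senses nutrients, control their translation through LARP1. Protein synthesis is costly, and in fasted liver ribosomes are degraded as well as made more slowly.

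RNA was sequenced from the livers of mice that had all been fasted for 24 h, in 5 groups of 4 libraries. Controls carried floxed alleles of Cpt1a, Cpt1b and Cpt2. The mutants lacked, in liver only, Cpt1a and Cpt1b (Cpt1DKO), Cpt2 (Cpt2KO), Cpt1a, Cpt1b and Cpt2 (TKO), or Cpt2 and the receptor gene Ppara (Cpt2PparaDKO). CPT1 and CPT2 are the enzymes of the outer and inner mitochondrial membrane that pass long-chain fatty acids into the mitochondrion for oxidation, and PPARα is the nuclear receptor that turns on fatty acid oxidation genes in fasting. No source used here names the driver of the deletion. The controls carry the floxed alleles of the TKO, with no separate control group labelled for the other mutants. The labels do not say that libraries come from separate animals, so p-values measure only the spread between these libraries, which may be technical.

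Library totals ran from 14129595 to 20273303 counts in 19 libraries and reached 36452673 in Cpt2PparaDKO replicate 1. Levels are in CPM, the count of a gene divided by the total of its library and set to a common size, after TMM scaling, which takes most genes as not changed. Cpt1a was at 940 to 1127 CPM in the controls, 146 to 173 in Cpt1DKO and 118 to 145 in TKO. Cpt2 was at 211 to 267 CPM in the controls, 114 to 165 in Cpt2KO, 92.5 to 115 in TKO and 28.5 to 39.1 in Cpt2PparaDKO, and it was also at 147 in Cpt1DKO replicate 2 against 284 to 302 in the other Cpt1DKO libraries, so the Cpt2 genotype of that library is in doubt. Ppara was at 54.3 to 83.3 CPM in Cpt2PparaDKO and 189 to 277 in the controls. Cpt1b was at 0.293 to 0.763 CPM in the controls and 0.62 to 1.11 in Cpt1DKO, too low to check the labels. Cpt2KO replicate 3 and Cpt2PparaDKO replicate 4 had a female expression pattern and the other 18 libraries a male one. Hepatocyte markers were abundant in all 20 libraries but lower in the mutants. The 12 listed genes summed to 108000 to 132000 CPM in the controls and 91300 to 102000 in Cpt1DKO. In Cpt2KO the sum was 54700 to 80700 CPM, in TKO 48600 to 82500 and in Cpt2PparaDKO 50100 to 63900. Against the controls 7 of the 12 were lower in Cpt2KO, 6 in TKO and 8 in Cpt2PparaDKO. The shares of all genes that fell in these 3 groups were 17.2%, 14.4% and 17.6%.

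Summed over the 93 genes, the mean level was lowest in the controls and highest in Cpt2KO, the latter with 1 library far above the rest. The 4 control libraries summed to 13300, 12700, 15600 and 13800 CPM. Cpt1DKO libraries summed to 15500, 15900, 16500 and 13900 CPM, and overlapped the controls. Cpt2KO libraries summed to 16600, 29400, 20800 and 21400 CPM, all above the controls. TKO libraries summed to 17800, 15700, 19300 and 17300 CPM, and Cpt2PparaDKO libraries to 16500, 18700, 22200 and 22400 CPM. The lowest library of each of these 3 groups lay above the highest control, in TKO by 15700 against 15600. The group means were 13900 ± 1270 CPM (SD, n = 4) in the controls and 15400 ± 1080 in Cpt1DKO. With Cpt2 deleted they were 22100 ± 5370 in Cpt2KO, 17500 ± 1450 in TKO and 20000 ± 2870 for Cpt2PparaDKO. Relative to the controls the means were 1.11, 1.59, 1.26 and 1.44 times as high in that order. As a plain share of all counts, without TMM scaling, the 93 genes held 1.2%, 1.44%, 2.2%, 1.8% and 2.42% in the 5 groups, so that by this measure Cpt2PparaDKO was highest. Without Cpt2KO replicate 2 the Cpt2KO mean was 19600 ± 2640 CPM (SD, n = 3), below that of Cpt2PparaDKO. In bulk tissue, fewer cells of a type and less RNA per cell cannot be told apart.

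**Figure D1:**
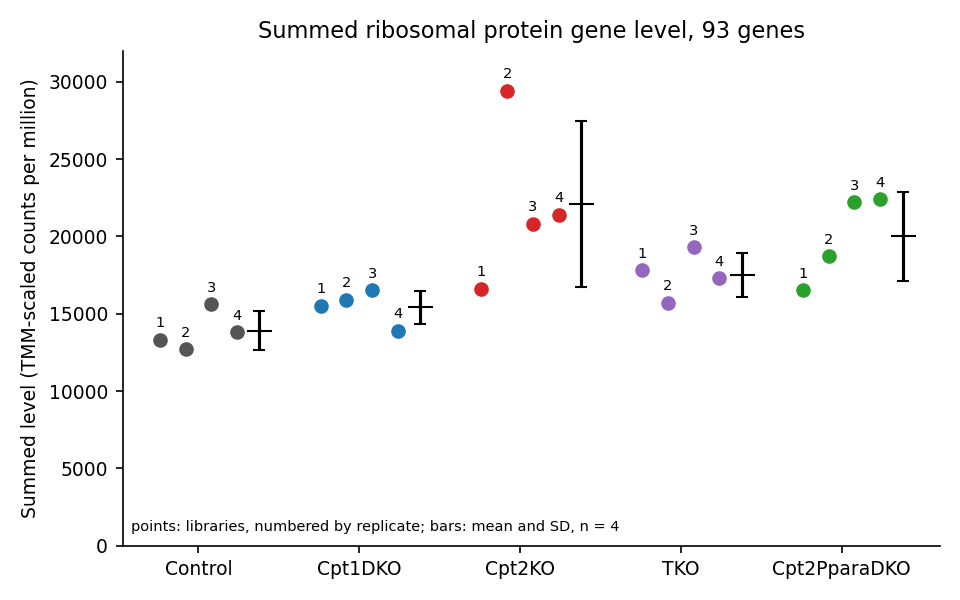
Each point is 1 library, numbered by replicate, with the summed level of the 93 genes in TMM-scaled CPM on the vertical axis; the bar to the right of each group is its mean and SD (n = 4). The Cpt2KO libraries spread from 16600 to 29400, while the controls lie between 12700 and 15600.

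Members were high or low together in the same libraries of a group. Cpt2KO replicate 2 was the highest of its group in 81 of the 88 tested genes, and Cpt2KO replicate 1 was the lowest in 78. Among the controls replicate 3 was the highest in 71, in TKO replicate 3 in 68, and in Cpt2PparaDKO replicate 1 was the lowest in 79. Cpt2KO replicate 2 stood apart: its median member was 0.59 on the log2 scale above the mean of the other 3 Cpt2KO libraries. In that library the 41 short nuclear-encoded respiratory chain subunits, another set of short and abundant transcripts, summed to 7520 CPM against 5000 to 6030 in the others. The 8 genes listed for elongation summed to 12000 CPM there, against 8530 to 10300. What part this library's composition has in the results was not tested, and the counts of Cpt2KO against the controls that move without it are given below in both forms.

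**Figure D2:**
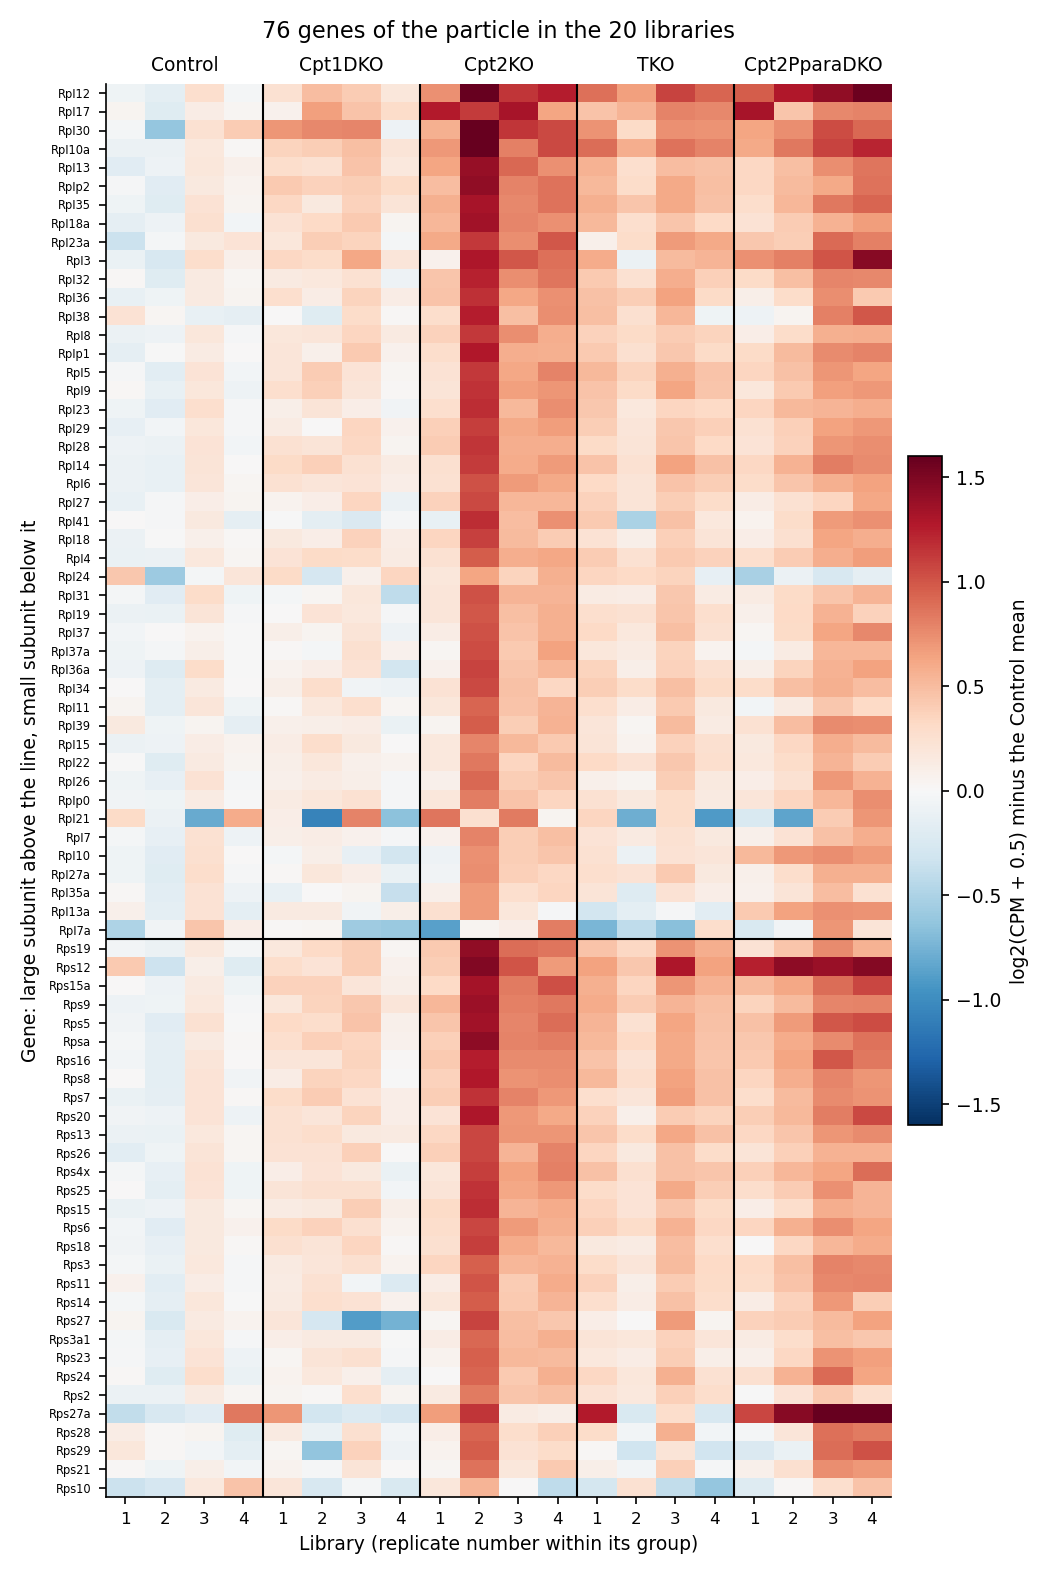
Colour shows log2(CPM + 0.5) minus the control mean for 76 of the 77 particle genes (rows, ordered by their change in Cpt2KO within each subunit) in the 20 libraries (columns). Cpt2KO replicate 2 is the darkest column, and Rpl21, Rps27a, Rps10 and Rpl7a differ from the rows around them.

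Levels differed widely between genes. Per kilobase of the deposited gene length, the 88 tested members ran from Rpl3l, at 0.193 CPM per kilobase, to Rplp1, an acidic protein of the stalk that recruits translation factors, at 679. Rps3a1 followed at 428 and Rpl36 at 418. At the low end were the paralog Rpl36al at 0.666 and the particle gene Rpl24 at 0.75. Rps10 was also low, at 3.31 CPM (unscaled for length), where its 4 pseudogene rows held 49.2 CPM together. Rpl17 had 59.3 CPM against 190 in its 11 pseudogene rows, Rpl21 had 35.9 against 39.3 in 15 rows, and Rps12 had 71.1 against 47.3 in 24 rows. Reads of Rps10, Rpl17, Rpl21 and Rps12 can be split with near-identical copies, so their values are uncertain. Rpl24 and Rpl36al had 0 pseudogene rows, and why their counts were so low was not tested, so these values may not be their true levels.

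In Cpt1DKO, which lacks the outer enzyme, no ribosomal protein gene passed the test. None was called at an adjusted p under 0.05 (edgeR's quasi-likelihood test, Benjamini-Hochberg adjustment over 15669 genes), where 2.44% of all genes were called higher and 3.1% lower. An unadjusted p under 0.05 was found for 5 of 88 members, all of them higher in Cpt1DKO, and DESeq2 called 0. In 4 members every Cpt1DKO library lay above every control library. No share of all genes is given for either count, so neither is read as a change. The median member change was 0.13 on the log2 scale, with 72 of 88 positive, against a median of -0.01 over all genes. Rps6, the small subunit protein phosphorylated by the S6 kinases, was at 387, 404, 376 and 326 CPM in Cpt1DKO and 305, 276, 351 and 329 in the controls, so that the groups overlapped.

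In Cpt2KO most of the ribosomal protein genes rose. Of the 88 tested, 66 rose and none fell, where 16.2% of all genes rose and 17.2% fell. The median change was 0.63 on the log2 scale, with quartiles of 0.49 and 0.76. Both subunits took part: 39 of 46 large subunit genes rose, with a median of 0.64, and 25 of 31 small subunit genes, with a median of 0.69. In 47 members every Cpt2KO library lay above every control library, against 14.6% of all genes. Without Cpt2KO replicate 2, 53 members rose and the median was 0.49, with 30 of the large subunit and 22 of the small, and these 53 rose in every fit that left out 1 library. The number of members with no overlap was 47 without it as well, against 16.2% of all genes. The 13 particle genes that did not pass were Rpl7a, Rpl10, Rpl13a, Rpl21, Rpl24, Rpl27a, Rpl35a, Rps10, Rps21, Rps27, Rps27a, Rps28 and Rps29.

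The largest rises were in Rpl22l1 and Rpl12. Rpl22l1 (chr3:28859585-28861573, GRCm39) is the paralog of Rpl22 and can take its place in the large subunit. It was at 15.6, 16.2, 15.8 and 17.2 CPM in the controls, 25.1, 52.1, 33.3 and 46.5 in Cpt2KO, 33.3, 26.9, 33.3 and 32.9 in TKO and 40.9, 45.3, 40.2 and 48.4 in Cpt2PparaDKO, with no overlap between the controls and these 3 groups. The rise in Cpt2KO was 2.42-fold (log2 1.28, SE 0.18, edgeR adjusted p = 1.6e-05). Rpl22 itself, present in most cells as the main form, rose 1.4-fold (log2 0.48, SE 0.13, edgeR adjusted p = 0.00522), from 101 to 128 CPM in the controls to 130 to 207 in Cpt2KO. Rpl12, a protein at the base of the stalk (chr2:32851571-32855357, GRCm39), was at 116, 109, 147 and 119 CPM in the controls and 203, 419, 271 and 292 in Cpt2KO. It rose 2.41-fold (log2 1.27, SE 0.18, edgeR adjusted p = 1.5e-05), and 1.06 on the log2 scale remained without Cpt2KO replicate 2. Rpl17 and Rpl30, both of the large subunit, each rose by 1.11 on the log2 scale, and Rpl10a by 1.08.

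The stalk proteins, which bind elongation factors, rose with the rest. Rplp2 (chr7:141027283-141031498, GRCm39) was at 107, 96, 121 and 113 CPM in the controls and 153, 292, 189 and 199 in Cpt2KO, without overlap, and rose 1.91-fold (log2 0.93, SE 0.15, edgeR adjusted p = 9.8e-05). Rplp1 rose 1.66-fold and Rplp0, which anchors both to the ribosome, 1.38-fold. Rpsa, a small subunit protein that also serves as a laminin receptor, was at 395, 366, 447 and 410 CPM in the controls and 524, 1090, 702 and 712 in Cpt2KO, and rose 1.87-fold. Rpl5 and Rpl11, which with the 5S RNA form the particle that can inhibit Mdm2, rose 1.65-fold and 1.46-fold. Rps6 rose 1.6-fold and Rps19, a protein of small subunit maturation that is mutated in Diamond-Blackfan anaemia, 1.91-fold.

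Among the 4 X-linked members Rps4x, Rpl36a and Rpl39 rose in Cpt2KO, 1.64-fold, 1.49-fold and 1.44-fold, and Rpl10 did not pass the test (log2 0.39, SE 0.15, edgeR adjusted p = 0.051). Paralogs did not follow a single course. Rps27l, a paralog of Rps27 known as a p53 target, was at 129, 105, 134 and 114 CPM in the controls and 97.8, 151, 106 and 123 in Cpt2KO, a log2 difference of -0.01 (SE 0.14). Rpl7l1, which acts in large subunit assembly, differed by 0.02 (SE 0.12) on the log2 scale. Their namesakes in the particle differed by 0.55 for Rps27 (edgeR adjusted p = 0.0613) and 0.45 for Rpl7 (adjusted p = 0.0173). Rps19bp1 differed by 0.23 (SE 0.16). Rpl3 rose 1.82-fold, while its muscle paralog Rpl3l stayed under 1 CPM in all 20 libraries and was not called.

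**Figure D3:**
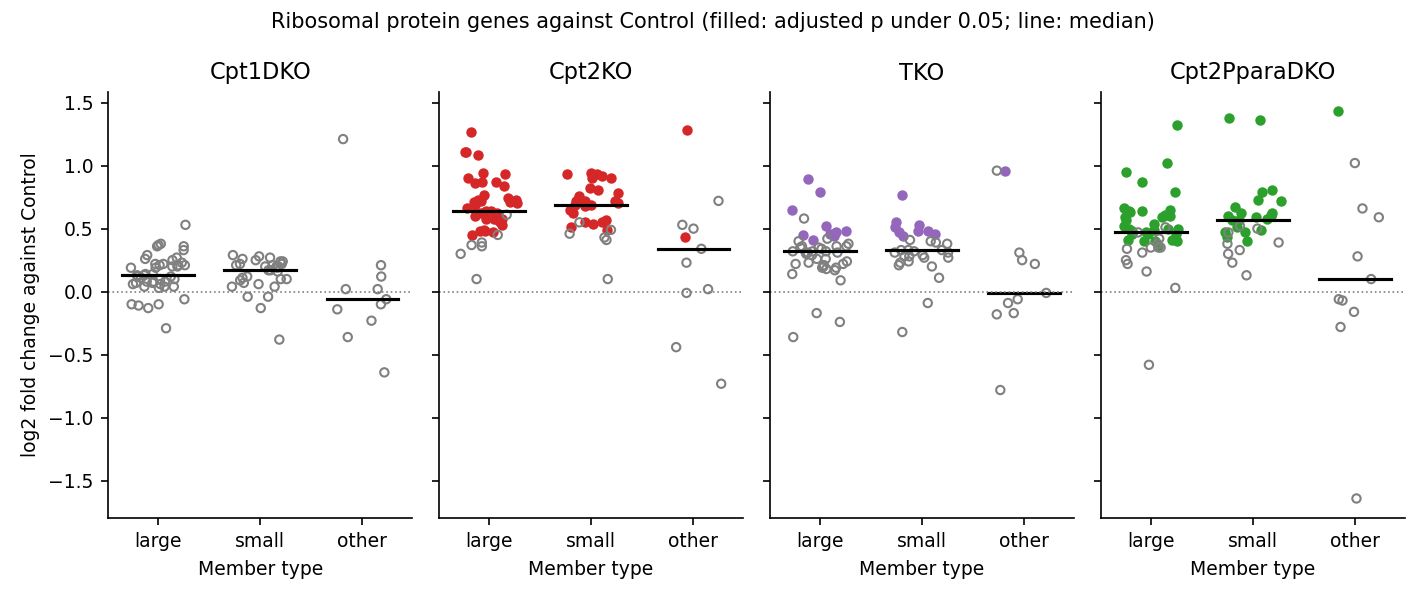
Each point is 1 tested member with its log2 fold change against the controls, in 1 panel per mutant group, split into large subunit, small subunit and other members; filled points have an edgeR adjusted p under 0.05 and the line is the median. No point is filled for Cpt1DKO, 66 are filled for Cpt2KO, 21 for TKO and 55 for Cpt2PparaDKO.

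The bases at the starts of some members are shown as a description. RefSeq promoters of build GRCm38.p6 (250 bases before the start to 50 after it) were found for 67 of the 93 genes, 79 promoters in all. The first set gives the 30 bases around the start, from 10 before it, for 6 members called in Cpt2KO that hold CTTTC on the sense strand within 5 bases of the start, and for 3 members with no rise. Capitals mark CTTTC, part of a TOP tract. The windows of the 6 called members lie at chr7:141447641-141447670 (+) for Rplp2, chr2:39005112-39005141 (-) for Rpl35, chr11:114668570-114668599 (+) for Rpl38, chr7:4792955-4792984 (+) for Rpl28, chr7:45718061-45718090 (+) for Rpl18 and chr14:18270967-18270996 (-) for Rpl15. Those of the other 3 lie at chr9:66946076-66946105 (+) for Rps27l, chr15:80264287-80264316 (-) for Rps19bp1 and chr17:46782637-46782666 (-) for Rpl7l1.
Rplp2: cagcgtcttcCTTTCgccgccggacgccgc
Rpl35: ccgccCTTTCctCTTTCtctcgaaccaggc
Rpl38: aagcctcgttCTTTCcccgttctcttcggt
Rpl28: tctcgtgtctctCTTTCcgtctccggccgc
Rpl18: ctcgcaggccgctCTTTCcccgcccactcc
Rpl15: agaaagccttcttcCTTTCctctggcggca
Rps27l: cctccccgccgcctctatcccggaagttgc
Rps19bp1: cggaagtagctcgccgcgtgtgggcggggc
Rpl7l1: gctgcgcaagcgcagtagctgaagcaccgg

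Of the 79 member promoters, 26.6% held CTTTC on the sense strand from 20 bases before to 20 after the start, against 5.49% of all 32851 promoters in the table. The longer CTCTTTC, which contains CTTTC, was in 8.86% against 0.56%. In that window CTTTC was held by 12 of the 48 genes called in Cpt2KO and by 9 of the 19 other members. CCGGAAG, the core bound by ETS factors such as GABPA, was counted on either strand from 250 bases before the start to 50 after it. It was present in 34.2% of member promoters and 8.86% of all, in 21 of the 48 called genes and 5 of the 19 others. Over the same bases AAGATGG, the core of YY1 sites, was in 15.2% against 6.34%, and TATAAA in 8.86% against 13.6%. The next lines give the 150 bases before the start for 3 of the called members with CCGGAAG there, those with the largest rise in Cpt2KO among 13 considered, with the match (here on the reverse strand, CTTCCGG) in capitals. They lie at chr7:141447501-141447650 (+) for Rplp2, chr2:39005132-39005281 (-) for Rpl35 and chr12:28635954-28636103 (-) for Rps7, all GRCm38.p6. A match is a description and no binding was measured.
Rplp2: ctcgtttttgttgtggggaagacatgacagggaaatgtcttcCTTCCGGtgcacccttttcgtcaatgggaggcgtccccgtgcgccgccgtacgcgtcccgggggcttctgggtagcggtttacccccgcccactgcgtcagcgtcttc
Rpl35: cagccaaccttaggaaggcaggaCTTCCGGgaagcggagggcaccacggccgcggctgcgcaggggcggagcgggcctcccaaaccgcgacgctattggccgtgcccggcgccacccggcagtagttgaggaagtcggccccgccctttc
Rps7: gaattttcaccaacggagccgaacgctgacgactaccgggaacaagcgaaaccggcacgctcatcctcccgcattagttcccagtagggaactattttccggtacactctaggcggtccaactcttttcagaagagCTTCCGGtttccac

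With Cpt1a, Cpt1b and Cpt2 all deleted fewer members passed the test against the controls, and no member was called between TKO and Cpt2KO directly. In TKO against the controls 21 of 88 members rose and none fell, with a median of 0.31, where 13% of all genes rose and 14.4% fell. In 43 members every TKO library lay above every control, against 16% of all genes. Rpl22l1 rose 1.95-fold, Rpl12 1.85-fold, Rpl10a 1.73-fold and Rps12 1.71-fold. Rplp2 was at 156, 134, 166 and 152 CPM, above all controls, and rose 1.39-fold (edgeR adjusted p = 0.0246). Rps6 (410, 385, 463 and 395 CPM) and Rplp1 (343, 306, 346 and 316 CPM) lay above all controls too, but did not pass the test. The count depended on single libraries: 7 members rose in every fit that left out 1 library, with 7 called without TKO replicate 3, 9 without Control replicate 2, 10 without Control replicate 1 and 11 without TKO replicate 1. With only the TKO and control libraries in the fit, 50 members rose. In the authors' deposited table for this comparison, 52 of 90 listed members were higher and 1 lower at an adjusted p under 0.05, with the 21 above among the 52, where 9.97% of all genes in that table were higher and 10.6% lower.

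Most members were also higher than in the controls where Ppara was deleted together with Cpt2. In Cpt2PparaDKO 55 of 88 members rose against the controls and none fell, with a median of 0.49, where 14.9% of all genes rose and 17.6% fell. In 46 members the libraries did not overlap with the controls, against 15.8% of all genes. Rpl22l1 rose 2.7-fold, Rps27a 2.6-fold, Rps12 2.57-fold and Rpl12 2.5-fold. Rps12 was at 99.4, 113, 110 and 116 CPM, against 33.2 to 56.1 in the controls and 55.1 to 118 in Cpt2KO. Rpl13a, a protein of the interferon-regulated GAIT complex, was at 17.9 to 22.3 CPM against 11.8 to 15.6 in the controls (log2 0.64, SE 0.14, edgeR adjusted p = 0.00152). The authors' deposited table for Cpt2PparaDKO had 66 of 90 members higher and 1 lower, where 9.8% of all its genes were higher and 10.7% lower. The authors' deposited table for Cpt2KO also had 66 higher and 1 lower, where 9.57% of all its genes were higher and 9.7% lower. In the authors' deposited table for Cpt1DKO 4 members were higher and 1 lower, near the 3.88% and 4.58% of all its genes.

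Rps27a, which encodes a ubiquitin fused to a small subunit protein, spread more within groups than its neighbours in the particle. It was at 58.9, 64.7, 68 and 139 CPM in the controls, 127, 63.4, 66.8 and 64.5 in Cpt1DKO, and 123, 172, 85 and 82.7 in Cpt2KO. TKO libraries were at 187, 65.3, 94.2 and 64.8 CPM and Cpt2PparaDKO libraries at 163, 213, 245 and 239. Only the last group lay wholly above the controls. Rps27 and its near-identical copy Rps27rt were not called in Cpt1DKO. There Rps27 was at 143, 104, 67.1 and 73.7 CPM and Rps27rt at 23.8, 86.9, 97.5 and 56.9, while the sum of both was 167, 191, 165 and 131 CPM, against 126 to 179 in the controls. Reads of the 2 genes can be split between them, so their separate values are uncertain.

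Set directly against Cpt2KO, Cpt2PparaDKO differed in few members. Of 88 tested, 1 rose and 2 fell, where 12.1% of all genes rose and 12.2% fell, and the median was -0.15. Rpl24 fell by 1.19 and Rpl36al rose by 1.46 on the log2 scale (edgeR adjusted p = 0.0234 and 0.0159), both with levels under 3 CPM in every library. Without Cpt2KO replicate 2 the median was 0.00. With library totals in place of TMM scaling it was 0.13, but the median of all genes was then 0.29, against 0.01 with TMM, so the members lay below it under both scalings. The count of members called in either direction was 11 without Cpt2KO replicate 1, 6 without Cpt2PparaDKO replicate 4, 1 without Cpt2PparaDKO replicate 1 and 0 without Cpt2KO replicate 4. Among the respiratory chain subunits 39 of 41 fell in the same comparison, with a median of -0.63.

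Whether Cpt2 loss acted alike with and without Cpt1 was asked by comparing Cpt2KO with the controls and TKO with Cpt1DKO, which share no library. Against Cpt1DKO, 1 member rose in TKO, Rpl22l1 (log2 0.75, SE 0.18, edgeR adjusted p = 0.0183), and none fell, where 2.6% of all genes rose and 2.06% fell. The median was 0.18, and 85 of 88 members had a lower signed log2 difference than between Cpt2KO and the controls. Rpl22l1 was not called without Cpt1DKO replicate 1 or 4, or TKO replicate 1. The test of this difference, the interaction, called 1 member, Rplp2, and left 87 uncalled, where 1.42% of all genes were called higher and 1.28% lower. Its interaction was -0.83 on the log2 scale (SE 0.22, edgeR adjusted p = 0.0454): Rplp2 differed by 0.93 between Cpt2KO and the controls and by 0.10 between TKO and Cpt1DKO, where it was at 146, 141, 143 and 135 CPM in Cpt1DKO. The median interaction was -0.47, and 47 members had an unadjusted p under 0.05, all negative. No share of all genes at that unadjusted p is given. Members were high or low together in the same libraries, so neither this count nor the 85 of 88 is made of independent results. The count of members called was 14 without Cpt2KO replicate 1, 2 without Cpt2KO replicate 4, 1 without Cpt1DKO replicate 4 or Cpt2KO replicate 3, and 0 when any other of the 16 libraries was left out, Cpt1DKO replicate 2 among them.

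**Figure D4:**
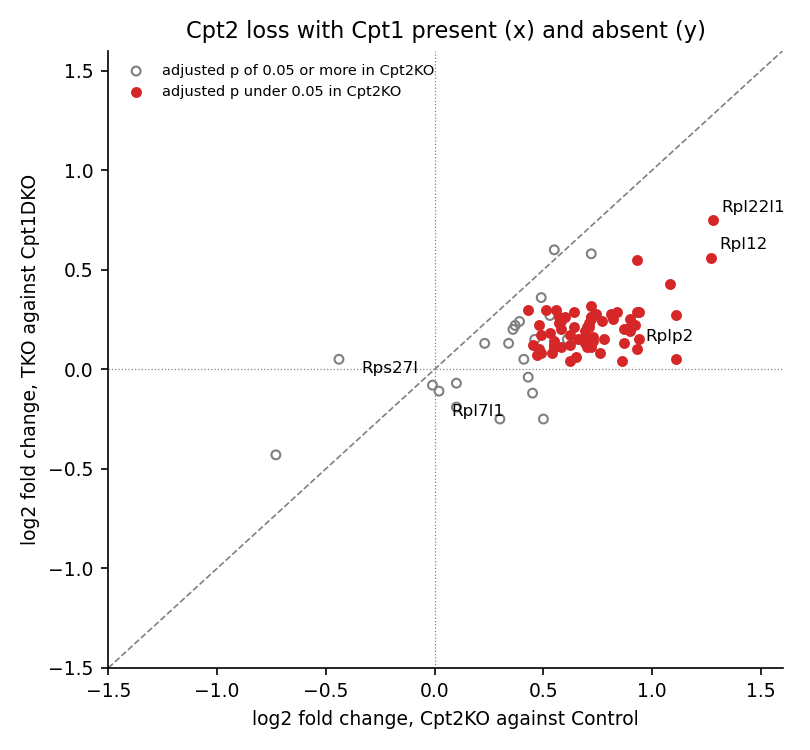
Each point is 1 of the 88 tested members, with its log2 fold change between Cpt2KO and the controls on the horizontal axis and between TKO and Cpt1DKO on the vertical axis; filled points have an edgeR adjusted p under 0.05 in Cpt2KO and the dashed line marks equal change. All but 3 points lie below the line, and Rpl22l1 and Rpl12 are farthest to the right.

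Between the mutants, 52 of 88 members were higher in Cpt2KO than in Cpt1DKO and none lower, where 7.41% of all genes were higher and 6.71% lower, with a median of 0.51. The count was 13 without Cpt2KO replicate 2, 20 without Cpt1DKO replicate 4 and 27 without Cpt1DKO replicate 1. TKO against Cpt2KO gave 0 calls, with 0.0319% of all genes higher and 0.0191% lower. There, 38 members had an unadjusted p under 0.05, all lower in TKO, with a median of -0.32, and DESeq2 called 0. These members too moved together by library, and no share of all genes at that unadjusted p is given.

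Other genes of ribosome production were called higher in Cpt2KO, TKO and Cpt2PparaDKO. Of 40 ribosome biogenesis factors, which process ribosomal RNA and assemble the subunits, 30 rose in Cpt2KO, 19 in TKO and 22 in Cpt2PparaDKO, and none fell. Their medians were 0.66, 0.51 and 0.55. In the same 3 groups 16.2%, 13% and 14.9% of all genes rose. In Cpt1DKO none was called, with a median of 0.31, but the list summed to 1460 to 1690 CPM, above the 1150 to 1350 of the controls. Rrp12, a factor of subunit export, rose by 1.55 on the log2 scale in Cpt2KO (SE 0.39, edgeR adjusted p = 0.00571), Gar1 of the H/ACA particles by 1.37 and Nop58 of the C/D particles by 1.26. Without Cpt2KO replicate 2, 20 of the 40 rose in Cpt2KO. Cpt2PparaDKO replicate 4 summed to 2910 CPM over this list against 1410 to 1580 in the other libraries of its group, and 11 rose without it and 13 without Control replicate 1. Of 15 factors of RNA polymerase I, which transcribes ribosomal RNA, 11 rose in Cpt2KO, 6 in TKO and 6 in Cpt2PparaDKO, among them Polr1c and Polr1e in each. This list summed to 336 to 384 CPM in Cpt1DKO, above the 313 to 334 of the controls. Without TKO replicate 1 the TKO count was 3, and without Cpt2PparaDKO replicate 4 or Control replicate 4 the Cpt2PparaDKO count was 3. These counts of 3 of 15 are not far from the 13% and 14.9% of all genes.

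Rack1 and Fau, ribosomal proteins with other names, rose in Cpt2KO by 0.81 and 0.53 on the log2 scale. Without Cpt2KO replicate 2, Rack1 rose by 0.64 (edgeR adjusted p = 0.00151) and Fau did not pass (0.33, edgeR adjusted p = 0.0726). Rack1, a scaffold on the small subunit, also rose in Cpt2PparaDKO (0.62) and in TKO (0.45), the latter call lost without TKO replicate 1 or 3 or Control replicate 1, 2 or 4, whereas Fau fell by 0.49 between Cpt2KO and Cpt2PparaDKO. Of 11 other TOP mRNAs 10 rose in Cpt2KO, 5 in TKO and 7 in Cpt2PparaDKO, and 3 rose in Cpt1DKO, namely Hnrnpa1, Nap1l1 and Pabpc1. The shares of all genes that rose in these groups were 16.2%, 13%, 14.9% and 2.44%. None of the list was called in Cpt1DKO without Cpt1DKO replicate 1 or 2, or Control replicate 2, 3 or 4, and 1 was without Control replicate 1. The list summed to 1880 to 2250 CPM in Cpt1DKO and 1550 to 1770 in the controls. In Cpt2KO Snhg1, a host RNA of small nucleolar RNAs, rose by 1.37, Nap1l1, a histone chaperone, by 1.32 and Npm1, the nucleolar protein nucleophosmin, by 1.13.

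Of 27 initiation factors 14 rose and 1 fell in Cpt2KO, 11 rose in TKO and 11 in Cpt2PparaDKO. Beside the counts in this paragraph, 16.2%, 13% and 14.9% of all genes rose in Cpt2KO, TKO and Cpt2PparaDKO. The shares of all genes that fell were 17.2%, 14.4% and 17.6%. Their sum in Cpt1DKO was 5000 to 5650 CPM, above the 4480 to 4940 of the controls. The TKO count was 5 without TKO replicate 1 or Control replicate 1, 6 without Control replicate 2 and 7 without TKO replicate 3. The Cpt2PparaDKO count was 6 without Cpt2PparaDKO replicate 4 and 7 without Control replicate 1, 2 or 3, and none fell in Cpt2KO with RLE size factors, or without any 1 of its libraries or Control replicate 2, 3 or 4. Eif6, which keeps the large subunit from joining too early, rose most in each, by 1.31, 1.14 and 1.06 on the log2 scale. Of 8 genes listed for elongation 5 rose in Cpt2KO, 2 in TKO and 4 in Cpt2PparaDKO. With RLE size factors 1 of the 8 fell in Cpt2KO and 1 in TKO. The kinase Eef2k, which inhibits elongation factor eEF2, fell by 1.16 in Cpt2KO and 1.19 in TKO. Without Cpt2KO replicate 2, 3 of the 8 rose in Cpt2KO, and without TKO replicate 1 or 3 or Control replicate 4, 1 rose in TKO. Of 16 ribosome chaperone and quality control genes 6, 5 and 5 rose, with Ipo4, an importin of ribosomal proteins and histones, at 1.51 in Cpt2KO, and 2 fell in Cpt2PparaDKO. In Cpt2PparaDKO the count that rose was 2 without replicate 4 and 3 without any 1 of the controls, and 1 fell without replicate 1, 2 or 3 or Control replicate 2, 3 or 4. The lowest left-out counts in TKO for initiation and elongation, and in Cpt2PparaDKO for chaperones, are not far from the shares of all genes. Those counts are not read as a change of the list.

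The genes listed for mTORC1 and TOP mRNA regulation did not share a direction. Of 30 tested, 6 rose and 3 fell in Cpt2KO, 6 rose and 2 fell in TKO, and 5 rose and 6 fell in Cpt2PparaDKO. Of all genes 16.2%, 13% and 14.9% rose and 17.2%, 14.4% and 17.6% fell in these groups. The counts are not far from those shares and are not read as a change of the list. With single libraries left out the counts that fell ranged from 2 to 8 in Cpt2KO (8 without Cpt2KO replicate 1) and from 1 to 2 in TKO (1 without TKO replicate 2 or Control replicate 1 or 3). In Cpt2PparaDKO 2 rose without replicate 4, 3 rose without replicate 1 or Control replicate 1 or 2, and 3 fell without replicate 2, 3 or 4 or Control replicate 1, 2 or 3. Myc, a transcription factor of ribosome genes, was at 8.7 ± 3.38 CPM (SD, n = 4) in the controls, 36 ± 11.9 in Cpt2KO, 30.5 ± 7.36 in TKO and 40.6 ± 11.1 in Cpt2PparaDKO, and rose by 2.05, 1.81 and 2.23 on the log2 scale. Mycn, at 1.07 ± 0.667 CPM (SD, n = 4) in the controls and lower still in every mutant group, fell by 4.05 in Cpt2KO and 2.18 in TKO. Eif4ebp1, a repressor of cap-dependent translation that mTORC1 switches off, rose by 1.02, 1.00 and 1.11. Mtor, the kinase itself, rose by 1.20 in Cpt2KO and in TKO and by 0.61 in Cpt1DKO, and fell by 1.25 between Cpt2KO and Cpt2PparaDKO. The call in Cpt1DKO was lost without Cpt1DKO replicate 1, 2 or 4 or Control replicate 1 or 3. These are mRNA levels, and kinase activity was not measured.

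Of 316 ribosomal protein pseudogene rows 74 were tested, and 37 rose and 1 fell in Cpt2KO, with a median of 0.65 beside the 0.63 of the members, and 22 rose without Cpt2KO replicate 2. In TKO 11 rose and 1 fell, with 3 higher without TKO replicate 3 or Control replicate 2, 4 without Control replicate 1, 5 without TKO replicate 1 and 7 without Control replicate 4. In Cpt2PparaDKO 16 rose and 1 fell. Of all genes 16.2%, 13% and 14.9% rose in Cpt2KO, TKO and Cpt2PparaDKO, and 17.2%, 14.4% and 17.6% fell. The TKO count of pseudogenes that rose is near that share and is not read as a change of the list. Pseudogene rows can take reads from the parent genes. The 41 short respiratory chain subunits had medians of 0.07 in Cpt2KO, -0.23 in TKO and -0.57 in Cpt2PparaDKO, with 3 higher in Cpt2KO, 8 lower in TKO and 37 lower in Cpt2PparaDKO. The TKO count ranged from 3 to 6 with single libraries left out and was lowest without TKO replicate 4 or Control replicate 2. The 3 higher in Cpt2KO are fewer than the share of all genes, and the 8 lower in TKO are near it.

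These lists moved with the scaling. Library totals in place of TMM moved the median of all genes from -0.01 to 0.20 in Cpt2KO, from -0.01 to 0.24 in TKO and from 0.00 to 0.48 in Cpt2PparaDKO. With library totals 26%, 26.1% and 47.5% of all genes rose in these groups, and 11.1%, 8.37% and 6.48% fell. The counts that rose in TKO and Cpt2PparaDKO were then 32 and 39 for the biogenesis factors, 12 and 14 for RNA polymerase I, 10 and 11 for the other TOP mRNAs, 19 and 25 for initiation, 7 and 7 for elongation, 10 and 14 for chaperones, 11 and 15 for the mTORC1 list, and 27 and 54 for the pseudogenes. For the mTORC1 list of 30 genes, the 15 that rose in Cpt2PparaDKO are near the 47.5% of all genes. In Cpt2KO 22 initiation factors rose. Of the respiratory chain subunits 15 rose in Cpt2KO, the median in TKO was 0.01 with 0 lower, and 3 were lower in Cpt2PparaDKO.

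**Figure D5:**
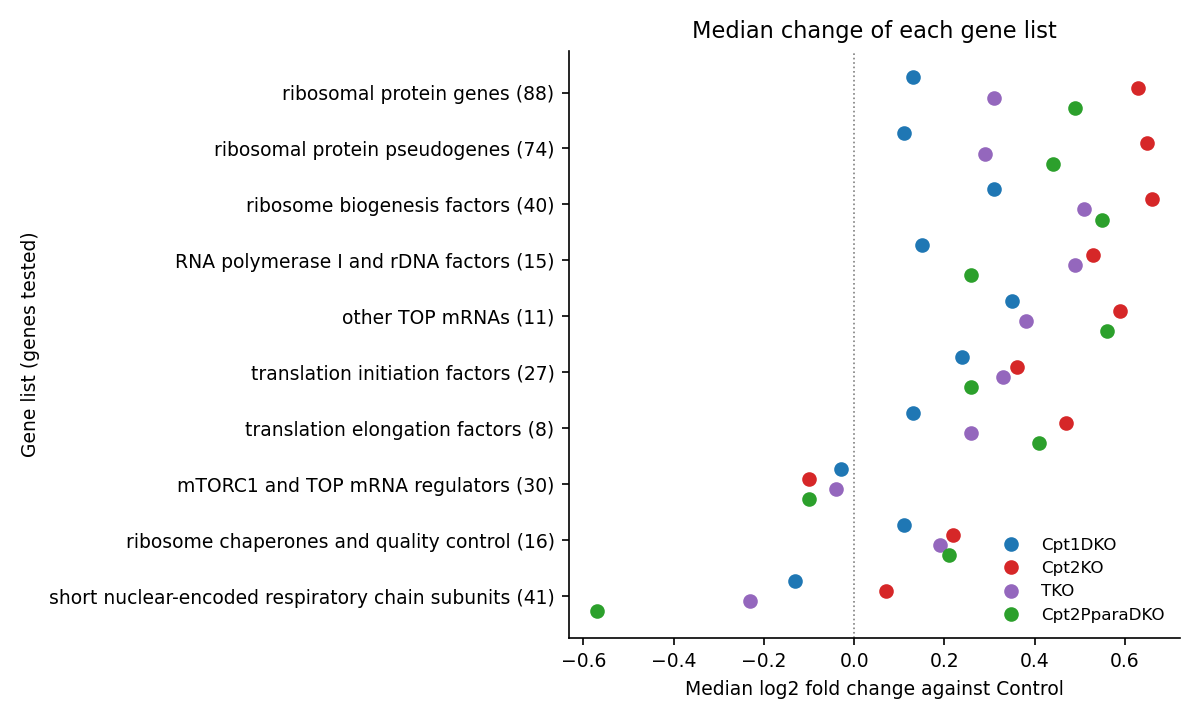
Each point is the median log2 fold change against the controls of the tested genes of 1 list (rows, with the number tested), coloured by mutant group. The ribosomal protein genes lie at 0.13 for Cpt1DKO, 0.63 for Cpt2KO, 0.31 for TKO and 0.49 for Cpt2PparaDKO, and the respiratory chain subunits lie at 0.07 or below in each group.

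Markers of other cell types differed too, and their part in these results was not tested. Young red cells carry ribosomal protein mRNA, and the 7 erythroid transcripts in the table summed to 121 to 265 CPM in the controls and to 184 to 325 in Cpt1DKO. Cpt2KO libraries reached 163 to 548 CPM, TKO 176 to 423 and Cpt2PparaDKO 190 to 505. Of 5 tested, Hbb-bs and Hba-a1 rose and Alas2 fell in Cpt2KO. Neither globin passed without Cpt2KO replicate 2 or 4, or without Control replicate 2 or 3, and Alas2 did not pass without Cpt2KO replicate 2 or 3 or Control replicate 1, 2 or 4. Of 14 macrophage markers 2 rose in Cpt2KO and TKO, Gpnmb and Cd68, which is near the 16.2% and 13% of all genes that rose. The list summed to 306 to 735 CPM in Cpt2KO, 247 to 440 in TKO and 322 to 639 in the controls. In Cpt2PparaDKO, where this sum was 630 to 740 CPM and 14.9% of all genes rose, Trem2 rose as well, as did 6 of 12 stellate cell and matrix genes. The stellate list was not higher in that group alone. It summed to 229 to 260 CPM in the controls, 292 to 347 in Cpt1DKO, 297 to 396 in Cpt2KO, 259 to 301 in TKO and 334 to 353 in Cpt2PparaDKO. Scaled to library totals, 11 macrophage and 10 stellate genes rose in Cpt2PparaDKO, where 47.5% of all genes rose. At that scaling 5 hepatocyte markers fell, where 6.48% of all genes fell. The 13 lymphocyte markers summed to at most 34.7 CPM in any library, and the 9 neutrophil markers to 5.88 to 10.2 CPM in Cpt2PparaDKO and 2.46 to 5.47 in the controls. The 8 cholangiocyte markers summed to 45.2 to 55 CPM in the controls. Cpt1DKO (35.4 to 44.1), Cpt2KO (21.6 to 28.4) and TKO (23.4 to 34.2) all lay below the controls, and Cpt2PparaDKO held 40.3 to 62.1. The 13 endothelial markers summed to 344 to 665 CPM in the controls and to 379 to 687 in the mutants, within which Cpt1DKO held 545 to 687.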

How the data were processed

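The authors deposited a table of read counts per gene, aligned with HISAT2 to GRCm39 per the submitters' processing notes; no source used here names the counting tool or a version. The authors' deposited tables of comparisons, holding a log2 fold change and an adjusted p-value per gene, were read only for members, and deposited FPKM values were not used. Counts were tested with edgeR 4.0.16 (quasi-likelihood, robust, TMM, genes kept by filterByExpr with a minimum count of 10) in 1 fit of all 20 libraries, with DESeq2 1.42.0 as an alternative; 15669 genes passed the filter. A gene was called at a Benjamini-Hochberg adjusted p under 0.05 over all genes tested. Each SE was derived from the log2 fold change and the F statistic. The common biological coefficient of variation was 0.233, which limits precision at 4 libraries a group. The script was tested on simulated data. Groups come from the genotype labels. Named genes were the 4 largest called changes per main comparison at a mean of at least 5 CPM, a set named in every case, and up to 3 genes per list; Rpl21, Rpl7a, Rps10, Rpl35 and Rps7 were named after their values were seen. The members and lists were chosen with earlier results of these data known. Members on chromosome 18 were not considered for the sequences shown. Values of 2 single genes are not reported here. Replicate numbers did not pair libraries: 5 of 40 same-numbered pairs had a correlation of deviations over 0.1.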

Additional observations from a re-analysis of the deposited data

Results flagged for a closer look

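Single libraries stood away from the other 3 of their group in 11 cases among 190 combinations of a group with a named member or a summed level, by Dixon's gap test at the 95% level. Chance gives about 1 such case in 20 groups. In TKO replicate 2, Rpl3 was at 216 CPM (328 to 350 in the other 3), Rpl30 at 106 (141 to 143) and Rpl22l1 at 26.9 (32.9 to 33.3). In TKO replicate 3, Rps27 was at 200 CPM (125 to 134), Rps27l at 131 (96 to 101) and Rps3a1 at 451 (396 to 403). Rpl24 was at 0.549 CPM in TKO replicate 4 (0.944 to 0.98). Rpl30 was at 80.8 CPM in Cpt1DKO replicate 4 (140 to 148). Rps27a was at 139 CPM in Control replicate 4 (58.9 to 68) and at 127 in Cpt1DKO replicate 1 (63.4 to 66.8). Rpl7l1 was at 71.6 CPM in Cpt2PparaDKO replicate 4 (49.5 to 51.9).

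For Rplp2 the interaction test called a difference in the effect of Cpt2 loss with and without Cpt1, of -0.83 on the log2 scale (edgeR adjusted p = 0.0454). It was the 1 member called of 88, where 1.28% of all genes were called lower. No member kept this call in every fit that left out 1 library, and none was called with the replicate number as a block.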

How the results depend on the processing

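With 1 library left out at a time, members called ranged from 53 to 72 for Cpt2KO against the controls (median 0.49 to 0.73), from 7 to 30 for TKO (0.27 to 0.39), from 40 to 67 for Cpt2PparaDKO (0.45 to 0.60), and stayed at 0 for Cpt1DKO (0.10 to 0.20). They ranged from 0 to 11 for Cpt2PparaDKO against Cpt2KO (-0.26 to 0.00), from 13 to 69 for Cpt2KO against Cpt1DKO (0.33 to 0.62), from 0 to 1 for TKO against Cpt1DKO (0.13 to 0.23) and from 0 to 14 for the interaction (-0.58 to -0.30), with 0 in every case for TKO against Cpt2KO (-0.44 to -0.16). With only the compared groups in the fit, 2 members were called in Cpt1DKO, 50 in TKO, 20 in Cpt2KO against Cpt1DKO, 3 in TKO against Cpt1DKO and 3 for the interaction. Scaling to library totals moved the median of all genes by 0.10, 0.20, 0.24 and 0.48 in Cpt1DKO, Cpt2KO, TKO and Cpt2PparaDKO. It gave 64 members and a median of 0.56 in TKO, a median of 0.98 in Cpt2PparaDKO, 5 members and a median of 0.13 in Cpt2PparaDKO against Cpt2KO, where the median of all genes moved to 0.29, 3 members and 0.31 in TKO against Cpt1DKO, and 3 members for the interaction. That scaling called 47.5% of all genes higher and 6.48% lower in Cpt2PparaDKO, where TMM called 14.9% and 17.6%; in TKO the split was 26.1% and 8.37%, in Cpt2KO 26% and 11.1%, and in Cpt1DKO 3.98% and 2.07%. For Cpt2PparaDKO against Cpt2KO it was 26.6% and 6.36%, for Cpt2KO against Cpt1DKO 10.7% and 4.5%, for TKO against Cpt1DKO 5.66% and 1.4%, and for the interaction 1.08% and 1.66%. DESeq2 called 6 members in Cpt2PparaDKO against Cpt2KO, 2 in TKO against Cpt1DKO and 9 for the interaction. With no filter on low counts the counts were 1, 2 and 2, and without the libraries of female pattern 7, 2 and 4. RLE size factors gave 2 for the interaction. The replicate number as a block gave 0 for the interaction and moved no other count of members by over 1.5 times. For single named genes 147 of the alternative values lost the call, 1141 kept it and none reversed. The causes were not tested. The counts of the gene lists under other scalings and with libraries left out were added after seeing the data. With 4 libraries a group, small changes and genes under 5 CPM were not resolved.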
